A study of Mus musculus with 6 samples.

Results

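The circadian clock genes described here are Arntl, Clock, Npas2, Per1, Per2, Per3, Cry1, Nr1d1, Nr1d2 and Dbp. They were chosen by gene name, and all 10 were found among the 34745 genes of the deposited table. RNA was measured by stranded mRNA sequencing in the dorsal striatum of C57BL/6 mice at an age of 1 year. There were 3 Ash1l heterozygous samples (Ash1l het) and 3 wild type samples (WT). Ash1l encodes a methyltransferase of lysine 36 of histone H3. Neither the kind of Ash1l allele nor the time of day at which tissue was taken is stated in the labels. Samples carry replicate numbers, and no label ties each to its own animal, so the p-values below rest on the scatter of these 6 samples, which may be technical.

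The mammalian clock is a transcriptional loop that runs in most cells. ARNTL (also called BMAL1) pairs with CLOCK or, in forebrain, with its relative NPAS2, and the pair activates genes that carry E-box sequences, among them the Per, Cry, Nr1d and Dbp genes. PER and CRY proteins then block the activators, and the NR1D receptors (REV-ERB alpha and beta) repress Arntl and Npas2 through ROR elements. Transcripts of Arntl and Npas2 therefore peak at about the opposite time of day from those of Nr1d1 and Dbp, and Cry1 peaks late. The striatum holds such a clock outside the master clock of the suprachiasmatic nucleus.

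Matches in the promoters of the members to sequence motifs used by the clock are shown first. Binding at these sites was not measured. RefSeq promoter windows (GRCm38.p6, from 250 bases before to 50 after a start) were matched for 9 of the 10 genes, with 13 windows in all. No window was matched for Per2, so it was not searched. Both strands were searched for the E-box CACGTG, for the D-box TTATGTAA, to which DBP binds, and for the ROR element core TAGGTCA. Matches were found in 4 members. Motif letters are in capitals, and each line runs 5′ to 3′ on the strand of its gene.
Per1 (E-box, plus strand, chr11:69098763-69098808): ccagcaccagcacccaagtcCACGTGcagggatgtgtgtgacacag
Cry1 (E-box, minus strand, chr10:85185089-85185134): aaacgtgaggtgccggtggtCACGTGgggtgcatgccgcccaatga
Per3 (2 D-boxes, minus strand, chr4:151044796-151044890): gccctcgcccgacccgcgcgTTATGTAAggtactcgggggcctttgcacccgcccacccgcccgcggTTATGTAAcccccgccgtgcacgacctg
Arntl (ROR element core, plus strand, chr7:113207531-113207557): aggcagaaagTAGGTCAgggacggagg
Among all 32851 promoter windows of the same length, 7.15% held the E-box, 0.938% the D-box and 2.61% the core of the ROR element. Counted by gene, the shares were 8.09%, 1.11% and 2.97% of 27025 genes. The Per1 E-box starts at position -166 and the Cry1 E-box at -60 from the RefSeq start, the Per3 D-boxes at -205 and -158, and the Arntl element 31 bases into the transcript. A match is a description of these letters, and the windows leave out more distant elements.

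The libraries held 12080663 to 18798694 counts. Male mice are named in the protocol of the labels, yet Xist, an RNA of the inactive X chromosome in female cells, stood at 1956 to 2957 CPM (normalised counts scaled to a common library size) in all 6 libraries, and 4 Y-linked genes together had 0 counts in 5 libraries and 1 in WT replicate 1. The targeted gene Ash1l stood at 281, 198 and 253 CPM in Ash1l het and 308, 295 and 293 CPM in WT. Its log2 difference was -0.29 (SE 0.13, edgeR adjusted p = 0.858). On the first principal component (27.9% of the variance) Ash1l het replicates 1 and 2 stood at -28.1 and -28.5. The other 4 libraries stood at 4.18 to 23.8. On the second component these replicates lay at opposite ends, at 34.8 and -34.3, with the other libraries at -2.54 to 4.70. The 8 markers of striatal spiny neurons, such as Ppp1r1b and Drd1, summed to 5974 to 7362 CPM. Of these Pde10a was at 984 CPM in WT replicate 2 and at 2016 to 2449 CPM in the other libraries. Without Pde10a the remaining 7 summed to 3746, 4301 and 4903 CPM in Ash1l het and to 4723, 5279 and 5086 CPM in WT. By sign 7 of the 8 were lower in Ash1l het, against 48.6% of all tested genes, and 1 was higher. By edgeR 0 were called, against 0.0131% of all tested genes. An unadjusted p under 0.05 was found for 2, Adora2a and Bcl11b, against 5.78% of all tested genes. The 5 blood cell markers, globins and Alas2, summed to 123, 110 and 56.1 CPM in Ash1l het and to 23.0 to 35.4 CPM in WT. All 5 were higher in Ash1l het (median log2 fold change 2.04), without overlap of the groups, against 11.7% of all tested genes. By edgeR 5 had an unadjusted p under 0.05 and 0 were called, while DESeq2 called 5, against 0.183% of its genes. The 4 choroid plexus markers summed to 25.7 to 39.1 CPM. The 6 markers of suprachiasmatic neurons summed to 0.977 to 1.73 CPM, and Avp and Six6 had 0 counts in every library, which allows up to 0.248 CPM (3 counts) in the shallowest library.

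None of the 10 clock genes passed a test of Ash1l het against WT. By the edgeR quasi-likelihood test 0 of 10 passed at an adjusted p under 0.05, against 0.0131% of the 15267 genes tested. At an unadjusted p under 0.05, 0 of 10 passed, against 5.78% of all genes. DESeq2 called 0 of 10 (background 0.183%), and limma on log2(FPKM + 0.1) called 0 of 10 (background 0.0147%). In every member the values of the 2 groups overlapped, whereas they did not overlap in 11.7% of tested genes. By sign 8 members were lower in Ash1l het and 2, Clock and Nr1d2, were higher. Of all tested genes 48.6% were lower by sign. The median log2 fold change was -0.09 over the members and 0.01 over all tested genes. The smallest adjusted p, 0.893 by edgeR, belonged to Nr1d1. With 3 libraries against 3, no gene can have a two-sided exact permutation p below 0.1.

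**Figure D1:**
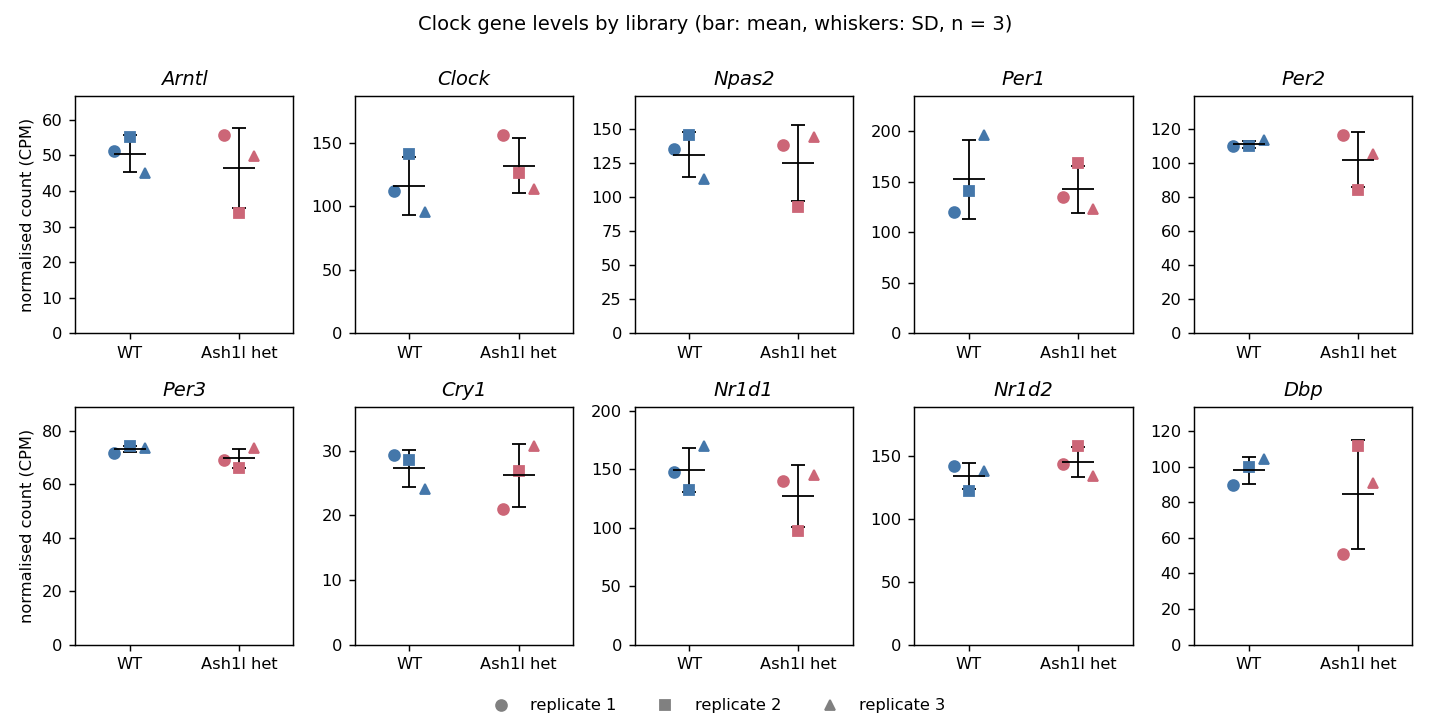
Normalised counts (CPM, linear axis from 0) of the 10 clock genes in 3 WT and 3 Ash1l het libraries; symbols mark the replicate, the bar is the mean and the whiskers are the SD (n = 3). The 2 groups overlap in every panel, and Dbp shows the widest spread, from 50.9 to 111 CPM, both ends in Ash1l het.

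Levels per length were compared on the authors' FPKM (fragments per kilobase of gene, scaled to the library total). In WT the highest was Nr1d1, at 42.1 ± 5.92 FPKM (SD, n = 3), and the lowest were Per3, at 5.68 ± 0.0812 FPKM, and Clock, at 5.14 ± 0.911 FPKM. Nr1d1 lay above every other member in each WT library. Npas2 (26.2 ± 2.98 FPKM) and Nr1d2 (22.6 ± 2.24 FPKM) had the next highest means and overlapped each other. Dbp (19.2 ± 1.41 FPKM), Per2 (18.5 ± 0.603 FPKM), Per1 (18.2 ± 4.77 FPKM) and Arntl (17.1 ± 1.5 FPKM) also overlapped among themselves, and Dbp overlapped Nr1d2. Per1 had the widest spread and overlapped both Npas2 and Nr1d2: in WT replicate 3 it stood at 23.6 FPKM, above Npas2 at 22.8 FPKM and Nr1d2 at 23.5 FPKM. Cry1, at 8.93 ± 0.916 FPKM, lay between these 4 and the lowest pair. FPKM here rests on a fixed length per gene recovered from the table, which was 22241 bases for Clock, where the longest GENCODE transcript has 9744, and 12708 bases for Per3, where it has 5999. For Dbp it was 5036 bases, against 1837, and for Per1 8265 bases, against 4671. The order of the levels depended on that length. Rescaled to the longest GENCODE transcript, Dbp (52.5 ± 3.86 FPKM) overlapped Nr1d1 (54.2 ± 7.63 FPKM), and Per1 (32.2 ± 8.43 FPKM) overlapped Npas2 (30.5 ± 3.48 FPKM) and Nr1d2 (28.3 ± 2.80 FPKM). On that scale the lowest mean was that of Cry1, at 8.90 ± 0.912 FPKM, while Clock stood at 11.7 ± 2.08 FPKM, Per3 at 11.9 to 12.2 FPKM in its 3 WT libraries and Arntl at 12.5 ± 1.09 FPKM.

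The activators are described first. Arntl (ENSMUSG00000055116; GRCm38 chromosome 7, 113207465 to 113314122, plus strand) encodes the partner that both activator complexes share. It stood at 55.7, 33.8 and 49.8 CPM in Ash1l het replicates 1 to 3 and at 51.3, 55.2 and 45.1 CPM in WT. Ash1l het replicate 2 was the lowest library and Ash1l het replicate 1 the highest, so the WT values lay inside the Ash1l het range. Its log2 fold change, Ash1l het over WT, was -0.12 (SE 0.18, 95% interval -0.53 to 0.28, edgeR adjusted p = 0.941).

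Npas2 (ENSMUSG00000026077; chromosome 1, 39193731 to 39363236) encodes the forebrain partner of ARNTL. It was at 138, 93.1 and 144 CPM in Ash1l het and at 135, 146 and 113 CPM in WT. As for Arntl, Ash1l het replicate 2 was the lowest of the 6 libraries and WT replicate 3 the next. The fitted difference on the log2 scale was -0.07 (SE 0.17, 95% interval -0.46 to 0.32). Clock (ENSMUSG00000029238; chromosome 5, 76209868 to 76304792, minus strand) encodes the other partner. Its levels were 156, 126 and 114 CPM in Ash1l het and 112, 141 and 95.8 CPM in WT. Clock did not share the low value of Ash1l het replicate 2, and its lowest library was WT replicate 3. Its log2 fold change was 0.18 (SE 0.17, 95% interval -0.19 to 0.56), and it ran from 0.04 without Ash1l het replicate 1 to 0.34 without WT replicate 2. Without Ash1l het replicate 2 the values of Arntl and Npas2 changed sign, to 0.06 and 0.10, and that of Npas2 was 0.01 without WT replicate 2.

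The Per genes encode the repressor partners of the cryptochromes. Per1 (ENSMUSG00000020893; chromosome 11, 69095217 to 69109960, plus strand) is also induced by cAMP and neuronal activity through CREB. It stood at 135, 168 and 123 CPM in Ash1l het and at 120, 141 and 196 CPM in WT. WT replicate 3 was the highest library and WT replicate 1 the lowest, so WT spanned the whole Ash1l het range. Its fold change on the log2 scale was -0.10 (SE 0.19, 95% interval -0.54 to 0.34). It changed sign without WT replicate 3, to 0.12, and with offsets for GC content and transcript length, to 0.07.

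Per2 (ENSMUSG00000055866; chromosome 1, 91415982 to 91459324) was nearly level in WT, at 110, 110 and 113 CPM, an SD of 0.027 on the log2 scale. In Ash1l het it was at 116, 84.3 and 105 CPM. Ash1l het replicate 1 lay above the WT libraries and replicates 2 and 3 below them. Per2 had a log2 fold change of -0.12 (SE 0.13, 95% interval -0.41 to 0.16), which was -0.0038 without Ash1l het replicate 2 and -0.23 without Ash1l het replicate 1. Per3 (ENSMUSG00000028957; chromosome 4, 151003652 to 151044665), an accessory Per gene, was the steadiest member, at 69.3, 66.3 and 73.6 CPM in Ash1l het and 71.9, 74.2 and 73.8 CPM in WT. Its highest library was 1.12-fold above its lowest. Between genotypes it differed by -0.07 (log2, SE 0.09, 95% interval -0.28 to 0.14), which was the narrowest interval of the 10. Per3 lies inside the span of Camta1 on the same strand.

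Cry1 (ENSMUSG00000020038; chromosome 10, 85131702 to 85185054), the strong repressor of the activator pair, had the fewest reads, 309 to 558 counts per library, where counting error alone is 5.69% at the lowest. It stood at 21.0, 26.8 and 30.7 CPM in Ash1l het and 29.3, 28.6 and 24.0 CPM in WT. Ash1l het held both the lowest library, replicate 1, and the highest, replicate 3. Its log2 fold change was -0.06 (SE 0.16, 95% interval -0.42 to 0.30), and 0.08 without Ash1l het replicate 1.

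Nr1d1 (ENSMUSG00000020889; chromosome 11, 98767932 to 98775333, minus strand) encodes REV-ERB alpha, which represses Arntl and Npas2. It was at 140, 96.8 and 145 CPM in Ash1l het and at 147, 132 and 169 CPM in WT. The low end came from Ash1l het replicate 2 and the high end from WT replicate 3. The log2 fold change was -0.23 (SE 0.16, 95% interval -0.61 to 0.14). It was -0.07 without Ash1l het replicate 2, -0.14 without WT replicate 3 and -0.08 with offsets for GC content and transcript length. The 3′ end of Nr1d1 overlaps Thra on the other strand by 1075 bases, and no source used here says whether reads were counted by strand. For Thra the log2 value was -0.15 (SE 0.14).

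Nr1d2 (ENSMUSG00000021775; chromosome 14, 18204054 to 18239127) encodes REV-ERB beta. Its levels were 144, 157 and 134 CPM in Ash1l het and 142, 122 and 138 CPM in WT. Its highest library was Ash1l het replicate 2, the library in which Nr1d1 was lowest. The log2 fold change was 0.11 (SE 0.11, 95% interval -0.13 to 0.36), and leaving out replicate 2 of either group brought it to 0.05.

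Dbp (ENSMUSG00000059824; chromosome 7, 45705088 to 45710155, plus strand) encodes a PAR bZIP factor and is a direct output of the activators. It stood at 50.9, 111 and 90.7 CPM in Ash1l het and at 89.7, 99.7 and 104 CPM in WT. The 3 WT libraries and Ash1l het replicate 3 were close together, Ash1l het replicate 1 was the lowest and Ash1l het replicate 2 the highest. The log2 fold change was -0.22 (SE 0.26, 95% interval -0.83 to 0.40), the widest interval of the 10, and without Ash1l het replicate 1 it was 0.04. Dbp overlaps Sphk2 on the other strand by 737 bases; Sphk2 stood at 16.2 to 21.8 CPM.

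**Figure D2:**
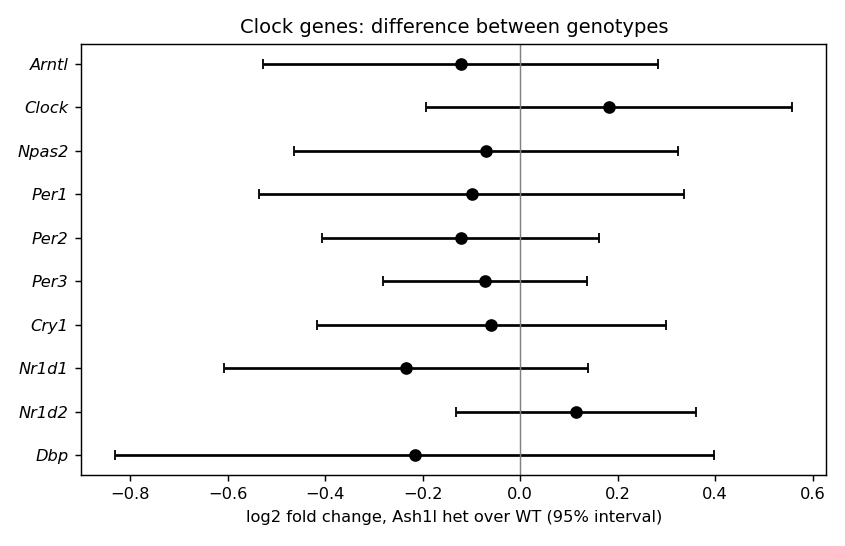
Log2 fold change of Ash1l het over WT (x axis) for the 10 clock genes (y axis), with 95% intervals from the edgeR quasi-likelihood fit (n = 3 per group). Every interval includes 0; the narrowest is that of Per3 (-0.28 to 0.14) and the widest that of Dbp (-0.83 to 0.40).

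The members differed in how far they varied among the 6 libraries. From the lowest to the highest library the range was 2.19-fold for Dbp, 1.75-fold for Nr1d1, 1.65-fold for Arntl and 1.63-fold for both Clock and Per1. On the log2 scale the range was 1.13 for Dbp and 0.16 for Per3, where the median over the 5009 tested genes with levels between those of Cry1 and Per1 (26.7 to 147 CPM) was 0.41. Of those genes 94.8% had a smaller range than Dbp, 88.3% a smaller one than Nr1d1 and 3.97% a smaller one than Per3. The SD of log2 CPM was larger in Ash1l het than in WT for 7 of 10 members, against 68.6% of all genes with a count in every library. Ash1l het replicate 2 was the lowest library for 5 members (Arntl, Npas2, Per2, Per3 and Nr1d1) and the highest for 2 (Nr1d2 and Dbp); of all tested genes 22.7% were lowest there and 24.1% highest.

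**Figure D3:**
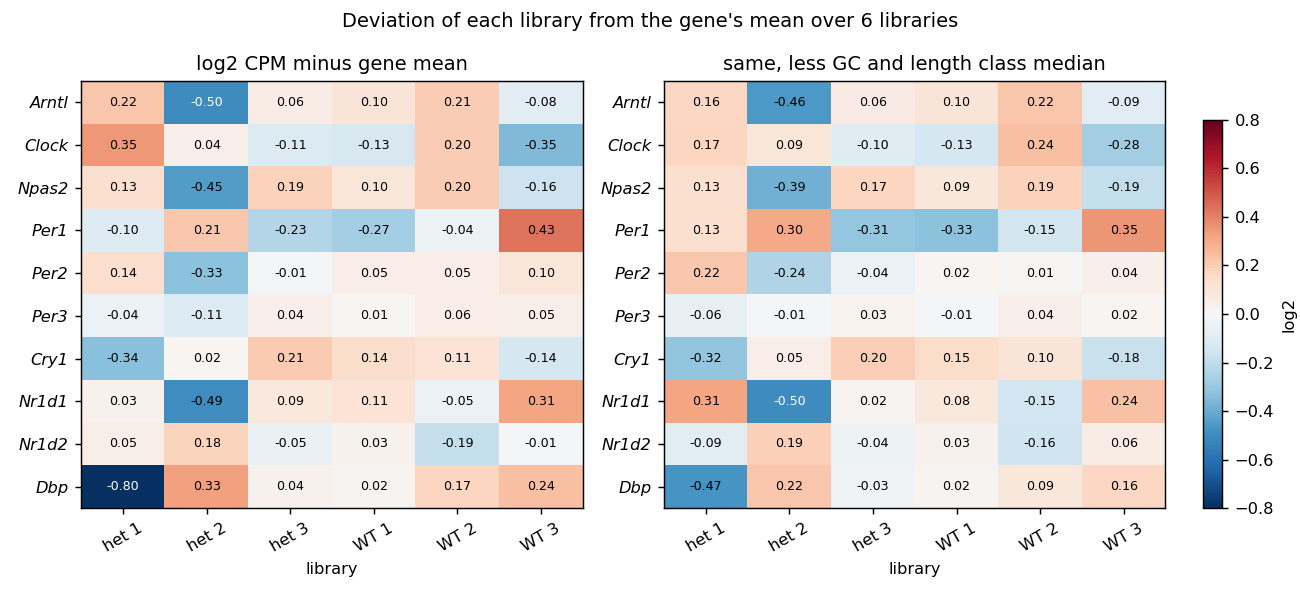
Deviation of each library (columns) from the gene's mean over 6 libraries, in log2 CPM, for the 10 clock genes (rows); the right panel subtracts the median of genes of like GC content and transcript length in that library. Ash1l het replicate 1 is low for Dbp and Ash1l het replicate 2 is low for Arntl, Npas2 and Nr1d1 in both panels, while the Dbp value shrinks from -0.80 to -0.47.

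Base composition and transcript length moved with the values of Ash1l het replicate 1. Over 11412 genes with a mean of at least 5 CPM, that library deviated by a median of -0.24 (log2) in the sixth of genes with the highest GC content (above 56.2%) and by 0.12 in the lowest sixth. In the other 5 libraries the medians of the highest sixth lay between -0.03 and 0.11. By length the same library had a median of -0.13 in the shortest sixth and 0.11 in the longest. Dbp has 61.6% GC and a transcript of 1837 bases, and Clock has 40.9% GC and 9744 bases. Less the class medians, Dbp in Ash1l het replicate 1 moved from -0.80 to -0.47 and Clock from 0.35 to 0.17. Other members moved away from 0 or changed sign there: Nr1d1 went from 0.03 to 0.31, Per2 from 0.14 to 0.22 and Per1 from -0.10 to 0.13. In a fit with offsets for both properties the Dbp log2 fold change was -0.15 with an SE of 0.16, down from 0.26, and 7 of 10 members were lower by sign, against 47.5% of all genes. Cell markers differed in Ash1l het replicate 1 too. Slc17a7, Tbr1 and Neurod6, markers of cortical neurons, summed to 75.8 CPM, against 11.9 to 52.9 CPM elsewhere. Ppp1r1b stood at 734 CPM, against 1246 to 1466 CPM. The other 7 spiny neuron markers summed to 5241 CPM (4797 to 5983 CPM elsewhere). The microglia marker P2ry12 stood at 14.8 CPM, against 34.5 to 47.8 CPM. The other 4 summed to 238 CPM (221 to 298 CPM elsewhere). Their part in the clock gene values was not tested.

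**Figure D4:**
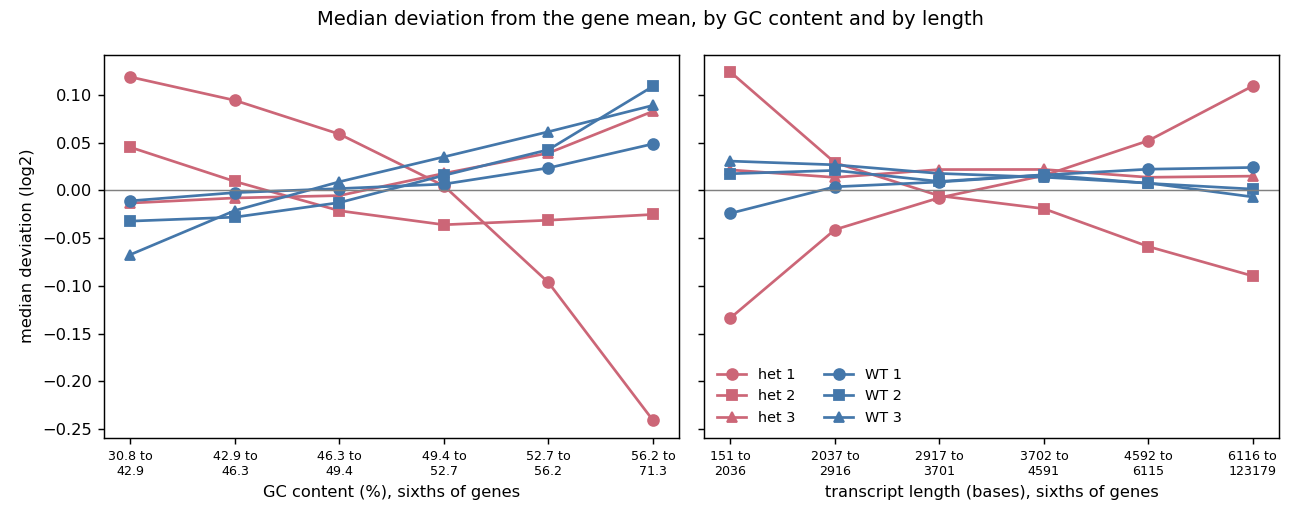
Median deviation from the gene mean (log2, y axis) of each library in sixths of genes by GC content (left) and by transcript length (right), for 11412 genes. Ash1l het replicate 1 runs from 0.12 to -0.24 as GC content rises, and Ash1l het replicate 2 runs from 0.12 to -0.09 with length.

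Length and cell markers also differed in Ash1l het replicate 2, where Arntl, Npas2 and Nr1d1 were lowest. Its median deviation was 0.12 in the shortest sixth of genes and -0.09 in the longest. Less the class medians, Arntl remained at -0.46, Npas2 at -0.39, Per2 at -0.24 and Nr1d1 at -0.50 in that library, while Per3 moved from -0.11 to -0.01. Of the markers of cortical neurons, 3 (Slc17a7, Tbr1 and Neurod6) summed to 11.9 CPM there and to 27.8 to 75.8 CPM in the other 5 libraries. Among the 8 spiny neuron markers Drd2 stood apart, at 206 CPM against 364 to 419 CPM. The remaining 7 summed to 6111 CPM, inside the range of 5574 to 6953 CPM. Among the 5 astrocyte markers Gfap stood apart, at 733 CPM there and 62.1 to 412 CPM in the other 5, while the remaining 4 summed to 764 CPM, inside the range of 622 to 832 CPM. Among the 5 microglia markers C1qa stood apart, at 94.6 CPM against 38.4 to 44.5 CPM, while the remaining 4 summed to 246 CPM, inside the range of 213 to 257 CPM. The 5 oligodendrocyte markers summed to 7632 CPM, against 5072 to 6778 CPM, and the 6 endothelial and mural markers to 260 CPM, inside the range of 235 to 323 CPM. The part of these cell markers in the clock gene values was not tested, and in bulk tissue fewer cells of a type and less RNA per cell cannot be told apart.

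Whether the libraries share a clock phase was examined from pairs of members in opposite limbs of the loop. Arntl and Npas2 peak at about the opposite time of day from Nr1d1 and Dbp, so a shift in time tends to move them in opposite directions. The Per genes need not move with Nr1d1 and Dbp at every hour, and no peak time is given here for Clock. Pairs with Per1, Per2 or Clock are thus a looser guide to phase. Pair values are differences of log2 CPM within a library, they share members, and no test was made on them. For each of the 5 pairs the 2 genotypes overlapped.

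Arntl minus Dbp was 0.13, -1.72 and -0.86 in Ash1l het replicates 1 to 3 and -0.81, -0.85 and -1.21 in WT. Ash1l het replicates 1 and 2 thus lay at opposite ends, a range of 1.85 against 0.41 in WT. The range in Ash1l het was 1.32 less the class medians of GC content and length. The same order did not appear with the other partner. Arntl minus Nr1d1 was -1.33, -1.52 and -1.54 in Ash1l het, a range of 0.21, and -1.52, -1.26 and -1.91 in WT. Npas2 minus Nr1d1 was -0.01, -0.06 and -0.00 in Ash1l het, a range of 0.05, and -0.12, 0.14 and -0.58 in WT. Less the class medians the Ash1l het range of this pair was 0.33, with Ash1l het replicate 1 at -0.29, and that of Arntl minus Nr1d1 was 0.19. In Ash1l het replicate 2 Arntl, Npas2 and Nr1d1 were thus low together, and Clock was not.

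WT replicate 3 had the lowest value of all 6 libraries in 4 of the 5 pairs, and also in 4 of 5 less the class medians. These were the pairs with Nr1d1, which share its value, and the looser pairs Npas2 minus Per2 and Clock minus Per1. In that library Nr1d1 deviated by 0.31 (log2) from its mean over the 6 libraries, Per1 by 0.43, Dbp by 0.24 and Per2 by 0.10. Clock deviated by -0.35 and Npas2 by -0.16, while Arntl, at -0.08, and Nr1d2, at -0.01, lay nearer their means. Npas2 minus Per2 was -0.00 there, against 0.30 and 0.41 in the other WT libraries and 0.25, 0.14 and 0.45 in Ash1l het. Clock minus Per1 was -1.03 there, against -0.10 and -0.00 in the other WT libraries and 0.20, -0.42 and -0.12 in Ash1l het. The exception was Arntl minus Dbp, where Ash1l het replicate 2 was lower. Immediate-early genes, which report recent neuronal activity, summed to 1574 CPM in WT replicate 3, the highest of the 6 libraries. The sum was 1435 CPM in Ash1l het replicate 2 and 1040 to 1225 CPM in the other 4. Egr1 was the largest part, at 428 to 616 CPM. The genes did not move as 1: in Ash1l het replicate 2 Fos (26.6 CPM) and Junb (128 CPM) were highest of the 6 libraries and Egr2 (7.49 CPM) was lowest. Per1 was highest in WT replicate 3 and next highest in Ash1l het replicate 2. The part of neuronal activity in the Per1 values was not tested.

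**Figure D5:**
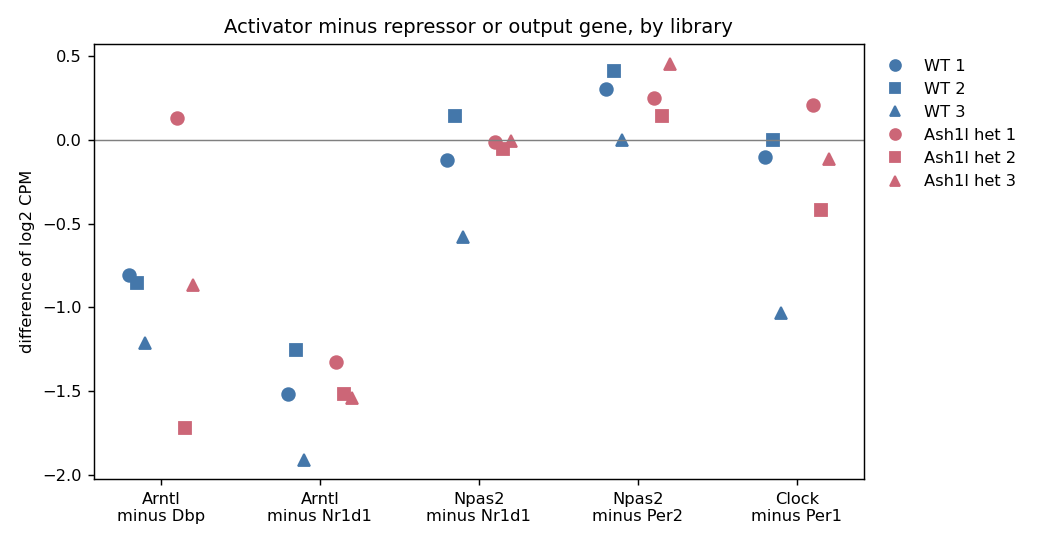
Differences of log2 CPM (y axis) between an activator and a repressor or output gene (x axis, 5 pairs), 1 point per library, coloured by genotype. WT replicate 3 is lowest in 4 of 5 pairs, and the Ash1l het libraries spread most in Arntl minus Dbp, from -1.72 to 0.13.

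Averaged over each arm, log2 CPM of the 3 activators was 6.49 ± 0.27 in Ash1l het and 6.51 ± 0.20 in WT (SD, n = 3 each). For the 3 Per genes with Cry1 it was 6.15 ± 0.045 and 6.24 ± 0.063. For Nr1d1, Nr1d2 and Dbp it was 6.82 ± 0.15 and 6.96 ± 0.10. With no collection time in the labels, these values assign no phase to a library.

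Other genes of the clock were read from the same fit. Of 25 listed, 24 were tested, 0 passed by edgeR (0 at an unadjusted p under 0.05, 0 by DESeq2 and 0 by limma), 9 were higher and 15 lower by sign, and the median log2 fold change was -0.03. Over all tested genes 48.6% were lower by sign and 5.78% had an unadjusted p under 0.05. Groups did not overlap in 3 of the 24, against 11.7% of all genes. These were Nampt, the NAD salvage enzyme driven by the clock (0.19, SE 0.10), Bhlhe40, an E-box repressor (-0.19, SE 0.11), and Fbxw11, a ubiquitin ligase subunit that acts on PER proteins (-0.15, SE 0.09). Cry2, the second cryptochrome, was at 130, 124 and 156 CPM in Ash1l het and 159, 156 and 160 CPM in WT (log2 difference -0.21, SE 0.11, edgeR adjusted p = 0.878). Hlf, a PAR bZIP relative of Dbp, had a log2 difference of -0.20 (SE 0.12), and Arntl2, the paralogue of Arntl, 0.33 (SE 0.23).

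Lists of genes that feed into Per1 or move with the day also held no call by edgeR, and DESeq2 called 1 of their genes, Zbtb16, and limma 0. Over all tested genes edgeR called 0.0131%, DESeq2 0.183% and limma 0.0147%. An unadjusted p under 0.05 was found in 5.78% of all tested genes, 48.6% were lower by sign, and the median log2 fold change was 0.01. Of 15 immediate-early genes, 10 were higher and 5 lower by sign (median 0.14), 0 were called and 1 had an unadjusted p under 0.05. That was Btg2, an antiproliferative early gene, at 0.88 (SE 0.31), and Egr3, an activity-induced zinc finger factor, had -0.38 (SE 0.20). Of 12 glucocorticoid response genes, 11 were higher and 1 lower by sign (median 0.21), with 0 called and 1 under 0.05 unadjusted. Zbtb16, a zinc finger factor, differed by 1.35 on the log2 scale without passing (SE 0.34, edgeR adjusted p = 0.741), and the metallothionein gene Mt1 0.21 (SE 0.10). Of 8 temperature-linked genes, 3 were higher and 5 lower by sign, with 0 called and 0 under 0.05 unadjusted. Rbm3, a cold-induced RNA-binding protein, had 0.16 (SE 0.13), and the heat shock gene Hspa1b -0.34 (SE 0.42).

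The genes whose library pattern lay nearest to 3 members were sought among 11432 other genes, by the root mean square distance between log2 CPM profiles centred on their own means. For Dbp these were Ssbp4, Ppp2r3d and Kctd20, at distances of 0.050, 0.051 and 0.060, where the median gene lay at 0.41. All 3 share the low value of Ash1l het replicate 1. Ssbp4 was at 44.5 CPM there against 78.0 to 98.3 CPM elsewhere, and has 64.3% GC. Ppp2r3d was at 5.71 CPM against 9.52 to 12.6 CPM and has 46.1% GC. Kctd20 was at 20.3 CPM against 38.6 to 47.0 CPM and has 51.1% GC. For Arntl they were Cobl, Arl8a and Hivep2, at 0.028, 0.032 and 0.037 (median 0.29), and all 3 were lowest in Ash1l het replicate 2. For Per1 they were Psmd5, Iqcc and Pgam1-ps2, at 0.036, 0.067 and 0.087 (median 0.30). None of the 9 is on the lists of clock genes used here.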

How the data were processed

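Raw read counts per gene and FPKM values were deposited by the authors for 3 Ash1l het and 3 WT libraries, and the count files of the single samples hold the same values as the series table. Per the submitters' processing notes the build was GRCm38 and the tools were HISAT2, StringTie, edgeR, CASAVA and FastQC; no source used here states their roles, versions or settings. Counts went into edgeR 4.0.16 under R 4.3.3 (quasi-likelihood test, TMM scaling, robust dispersion, default filter with a minimum count of 10, genotype as the single term), which left 15267 genes, with Benjamini-Hochberg adjustment and a threshold of 0.05. CPM are on the TMM scale. The steps were tested on simulated counts. DESeq2 1.42.0 and limma 3.58.1 were alternatives, with other scalings, filters, the replicate number as a block and each library left out. GC content and length came from the longest GENCODE vM21 transcript (99.5% of tested genes); their offsets, the removal of mitochondrially encoded genes and FPKM rescaled to that length were added after the data were seen. Intervals cover counting and replicate error of these libraries only.

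The members and the gene lists were chosen with earlier results of these data known. Genes were named by rule: all 10 members, Ash1l, of the other lists up to 6 (clock) or 2 (early, glucocorticoid, temperature) by smallest p, and the 3 nearest profiles to Dbp, Per1 and Arntl among genes of at least 5 CPM; marker genes, Xist, Thra, Sphk2 and Camta1 are named beside results they touch. One marker gene is not reported here and was left out of its list.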

Additional observations from a re-analysis of the deposited data

How the results depend on the processing

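With all 6 libraries, 11 alternatives gave 110 log2 fold changes for the 10 members, and 1 changed sign, Per1 with GC and length offsets (0.072). No member was called by any alternative run, with adjusted p from 0.548 to 1.00 over all of them and a smallest unadjusted p of 0.0717. Leaving out single libraries moved the log2 fold change of Arntl between -0.27 and 0.060, of Npas2 between -0.19 and 0.10, of Per1 between -0.25 and 0.12, of Cry1 between -0.19 and 0.075, of Dbp between -0.47 and 0.042, of Nr1d1 between -0.34 and -0.073, of Per2 between -0.23 and -0.0038, of Per3 between -0.11 and -0.038, of Clock between 0.044 and 0.34 and of Nr1d2 between 0.048 and 0.17. Over all genes DESeq2 called 35 (22 higher), against 2 by edgeR, and leaving out single libraries gave 1 to 13 calls. Deviations of same-numbered samples were no more alike than those of other pairs of samples. Their correlations were 0.056, -0.075 and 0.011, against -0.13 to 0.13 for unlike numbers. With 3 libraries per group these values cannot exclude that the samples were paired. With a replicate block 3 genes were called and 0 of them were members. The causes of these shifts were not tested. Small differences could not be detected with 3 libraries per group. The intervals given for each gene are not adjusted for the number of genes tested, so they are not a limit of detection. Larger differences can also fail to pass, as for Zbtb16 at a log2 fold change of 1.35 (edgeR adjusted p = 0.741).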
